A study of Mus musculus with 2 samples.

Results

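Podxl, Cd34, Emcn, Glycam1 and Cd164 are 5 of the 31055 features counted in single blood endothelial cells (BECs) of mouse tumors. They were chosen by name, as the sialomucins and related selectin ligands that endothelium makes, and all 5 were found in both libraries. The cells came from wild-type female C57BL6 mice, aged 6 weeks when 100000 tumor cells were implanted at the orthotopic site, and tumors were taken 10 days later. The KPC line is a pancreatic cancer line and the PyMT line a mammary cancer line. The study was about turning capillary endothelium toward a venule state that recruits T cells, by expression of the transcription factor COUP-TFII, encoded by Nr2f2, and these 2 libraries hold BECs of tumors in mice without that change. Each tumor model had 1 droplet-based library (scRNAseq), so tumor model and library cannot be told apart, no test across samples was possible, and all intervals here are 95% intervals for counting error only. Before sorting, cells carrying CD45, EpCAM, Ter119, podoplanin or annexin V had been depleted. The number of mice behind each library is not given in the sources used here.

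Sialomucins are membrane or secreted proteins with long stretches of serine and threonine that carry dense sialylated O-glycans. On most endothelium they form part of the negatively charged surface coat that keeps blood cells apart from the vessel wall, but when high endothelial venules of lymph nodes add sulfated and fucosylated sugars to them, they become ligands for L-selectin and draw lymphocytes out of the blood. Podxl encodes podocalyxin, which binds ezrin and the NHERF scaffold proteins through its cytoplasmic tail. Cd34 encodes a related sialomucin found on endothelium and blood progenitors, Emcn encodes endomucin, a marker of capillaries and veins, Glycam1 encodes a secreted mucin of high endothelial venules that is also made by milk-producing mammary epithelium, and Cd164 encodes a widely expressed sialomucin of endosomes and the cell surface.

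In GRCm38 (GENCODE M21), Podxl (ENSMUSG00000025608) is at chr6:31519488-31563981 on the reverse strand and Cd34 (ENSMUSG00000016494) at chr1:194938819-194961279 on the forward strand. Emcn (ENSMUSG00000054690) is at chr3:137341067-137432185 on the forward strand, Glycam1 (ENSMUSG00000022491) at chr15:103562759-103565081 on the reverse strand, and Cd164 (ENSMUSG00000019818) at chr10:41519414-41531048 on the forward strand. The antisense gene Gm16897 overlaps an exon of Cd34 and is itself in the count tables. RefSeq promoters (GRCm38.p6, 250 bases before and 50 after the start) matched Cd34, Emcn, Glycam1 and Cd164. Those bases of them that lie before the gene in GENCODE are shown. They set the start of Cd164, whose level varied less between classes, beside those of members whose level varied more. A link between these sequences and the levels was not tested. Capitals mark CG in Cd34 and Cd164. The bases shown for Emcn and Glycam1 hold no CG. There capitals mark AGGTCA (as TGACCT), a part of a nuclear receptor site, in Emcn and the RBPJ letters TGGGAA (as TTCCCA) in Glycam1.
Cd34: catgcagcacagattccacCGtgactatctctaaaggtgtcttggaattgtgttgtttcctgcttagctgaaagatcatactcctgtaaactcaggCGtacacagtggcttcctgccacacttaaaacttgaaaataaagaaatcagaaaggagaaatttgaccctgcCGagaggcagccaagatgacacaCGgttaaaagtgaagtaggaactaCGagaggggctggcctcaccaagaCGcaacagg
Emcn: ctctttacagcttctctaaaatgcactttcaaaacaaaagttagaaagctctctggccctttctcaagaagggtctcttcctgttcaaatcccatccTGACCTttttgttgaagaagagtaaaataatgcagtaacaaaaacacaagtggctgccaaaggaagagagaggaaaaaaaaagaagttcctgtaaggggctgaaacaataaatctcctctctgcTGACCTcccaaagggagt
Glycam1: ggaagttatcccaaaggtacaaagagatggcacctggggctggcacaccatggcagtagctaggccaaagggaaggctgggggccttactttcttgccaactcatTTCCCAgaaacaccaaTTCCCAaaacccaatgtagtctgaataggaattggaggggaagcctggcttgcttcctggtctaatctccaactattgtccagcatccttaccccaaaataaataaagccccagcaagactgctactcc
Cd164: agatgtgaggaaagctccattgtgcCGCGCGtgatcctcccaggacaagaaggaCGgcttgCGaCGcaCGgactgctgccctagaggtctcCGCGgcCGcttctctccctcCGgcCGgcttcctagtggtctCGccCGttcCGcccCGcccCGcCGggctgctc
These stretches are chr1:194938571-194938818 on the forward strand, chr3:137340828-137341066 on the forward strand, chr15:103565082-103565331 on the reverse strand and chr10:41519250-41519413 on the forward strand. CG was counted after the sequences had been seen. Over the full 250 bases before the start, Cd164 had 33 CG, a count reached by 4.03% of the 32851 promoters in the table, whereas Cd34 had 6, Emcn 1 and Glycam1 0, and the median promoter had 6. AGGTCA is only a part of a nuclear receptor site. It was on the reverse strand of Emcn at 153 and 29 bases before the start and of Glycam1 at 30 bases after it. Of all promoters, 16.3% held it on either strand. Binding of COUP-TFII to these letters was not tested. TGGGAA was in the Glycam1 promoter only (25.6% of all promoters), ACAATG, the SOX letters, and CACGTG, an E-box, were in that of Cd164 only (12.6% and 7.15%), and CCGGAA, an ETS site, was in none of the 4 (14.9%). Cd34 held none of the 5 motifs in this window, which says nothing about the factors that bind them.

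The KPC library held 10236 barcodes and 44441942 UMIs (unique molecular identifiers, each a captured transcript) and the PyMT library 12464 barcodes and 55547926 UMIs. A cell needed 500 detected genes and less than 10% of its UMIs from the mitochondrial genome, a filter that 9591 cells passed in KPC (median 3141 UMIs) and 11744 in PyMT (median 3978 UMIs). Cells were put into classes by UMIs of marker pairs, namely Ackr1 and Selp for venule (640 cells in KPC, 360 in PyMT), Gja5 and Sema3g for artery (105 and 126), Apln and Angpt2 for tip cells (1302 and 1991), and Car4 and Cd300lg for capillary (1297 and 2597). Other pairs set aside lymphatic, pericyte, fibroblast and tumor classes, and cells that met no rule (4089 and 5603) were called other. Of markers that the rules did not use, 7 of 7 arterial genes were highest in the artery class in both libraries, and 5 of 6 venule genes in KPC and 4 of 6 in PyMT were highest in the venule class among the blood vessel classes. Of 6 tip cell genes, 4 in KPC and 3 in PyMT were highest in the tip class among the blood vessel classes. All 5 capillary markers (Gpihbp1, Rgcc, Cd36, Fabp4, Btnl9) were highest in the capillary class in KPC, but 0 of 5 were in PyMT, where their summed level was 4819 CPM (the gene's share of all UMIs summed over the class, on the usual CPM scale) in that class against 12631 CPM in KPC. It is therefore called the Car4/Cd300lg class below. The class set aside by Krt8 and Krt18 had 4451 CPM of epithelial markers in KPC and 40.1 CPM in PyMT, and is called the Krt8/Krt18 class. Although podoplanin had been depleted, the lymphatic class held 802 cells in KPC and 633 in PyMT. In KPC 7.59% and in PyMT 10.5% of cells met more than 1 rule, and 151 barcodes of kept cells occurred in both libraries. The PyMT pericyte and fibroblast classes held 27 and 28 cells.

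Podxl was highest in the artery class of both libraries and low in venule and tip cells. Its KPC level was 331 CPM in the artery class (exact Poisson interval 271 to 400), 296 CPM in the Car4/Cd300lg class (279 to 314), 201 CPM in the other class (192 to 209), 97.1 CPM in tip cells (90.6 to 104) and 96.3 CPM in venule cells (85.4 to 108). The artery and Car4/Cd300lg levels did not differ beyond counting error (log2 ratio 0.16, interval -0.14 to 0.45), nor did tip and venule (0.01, -0.19 to 0.21), whereas venule was 3.07-fold below Car4/Cd300lg (log2 ratio -1.62, -1.82 to -1.43). In PyMT the levels were 209 CPM in artery (171 to 254), 113 CPM in Car4/Cd300lg (107 to 119), 92.9 CPM in other (88.8 to 97.1), 76.5 CPM in tip (71.8 to 81.4) and 66.7 CPM in venule cells (54.2 to 81.1). There venule was 1.70-fold below Car4/Cd300lg (log2 ratio -0.76, -1.07 to -0.47) and artery 1.85-fold above it (0.89, 0.58 to 1.18). After each cell was thinned to 2000 UMIs, 43.3% of KPC artery cells (interval 31.2 to 56.0), 39.7% of Car4/Cd300lg cells (35.7 to 43.7) and 16.1% of venule cells (13.1 to 19.5) had a Podxl UMI, and in PyMT 36.4% (27.4 to 46.3), 18.7% (17.2 to 20.3) and 13.3% (9.61 to 17.8). Unthinned, these shares were 57.1%, 48.3% and 30.8% in KPC and 57.1%, 35.9% and 22.2% in PyMT. The Krt8/Krt18 class, whose own use of Podxl was not tested, gave 2.16% in KPC and 2.65% in PyMT after thinning. Podxl was also retained in the lymphatic class, at 99.8 CPM in KPC (89.7 to 111) and 111 CPM in PyMT (98.3 to 124). Cd34 and Emcn in that class were below their own levels in every blood vessel class.

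**Figure D1:**
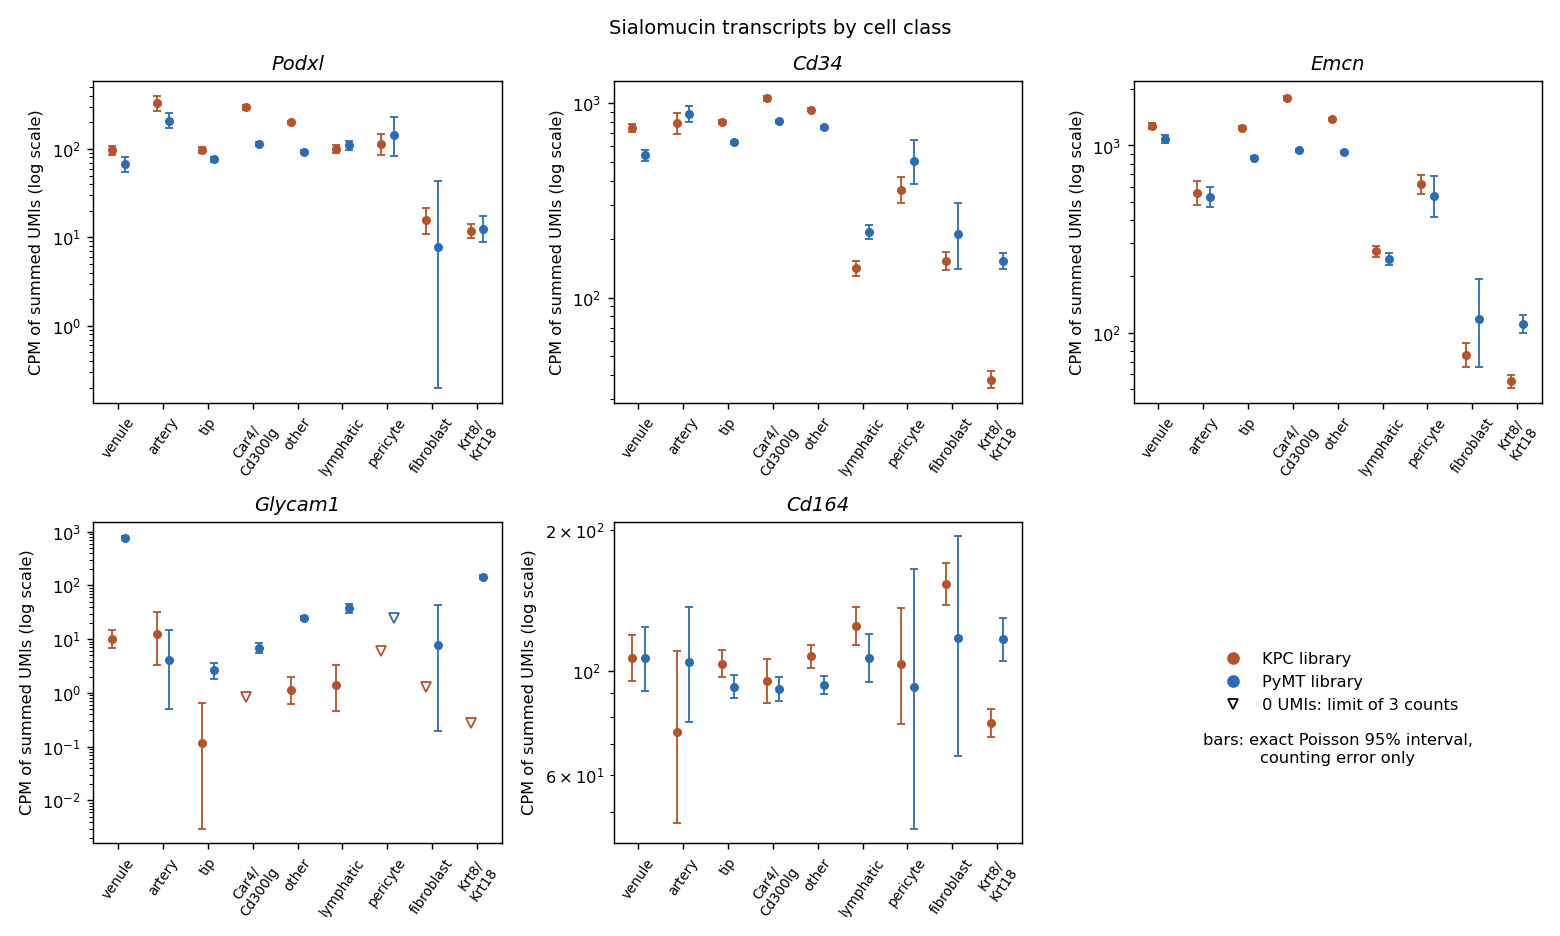
CPM of summed UMIs (y axis, log scale) of the 5 members in 9 cell classes (x axis) of the KPC and PyMT libraries, with exact Poisson 95% intervals; open triangles mark 0 UMIs at the level of 3 counts. Podxl has its highest value in the artery class of both libraries, though in KPC not above Car4/Cd300lg beyond counting error. Emcn is lowest in the artery class among blood vessel classes in both libraries. Cd164 lies between 74.2 and 154 CPM in every class, and Glycam1 reaches 773 CPM in PyMT venule cells.

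Cd34 was present in most cells of every blood vessel class and low in lymphatic cells. Its level in KPC was 1059 CPM in the Car4/Cd300lg class (1026 to 1094), 926 CPM in other (909 to 944), 802 CPM in tip (783 to 821), 791 CPM in artery (697 to 895) and 746 CPM in venule cells (715 to 778), and the artery interval overlapped those of its neighbors tip and venule. In PyMT it was 882 CPM in artery (800 to 969), 807 CPM in Car4/Cd300lg (791 to 823), 752 CPM in other (741 to 764), 628 CPM in tip (615 to 642) and 539 CPM in venule cells (502 to 577). Venule cells thus had the lowest value in both libraries, though in KPC not below artery beyond counting error, with log2 ratios over Car4/Cd300lg of -0.51 (-0.58 to -0.43) in KPC and -0.58 (-0.69 to -0.48) in PyMT. The artery over Car4/Cd300lg ratio was -0.42 in KPC (-0.61 to -0.24) and 0.13 in PyMT (-0.01 to 0.27). Lymphatic cells had 141 CPM in KPC and 217 CPM in PyMT. In the Krt8/Krt18 class the level was 37.9 CPM in KPC and in PyMT 155 CPM, where 19.9% of its thinned cells had a Cd34 UMI and the blood endothelial genes Pecam1, Cdh5, Tie1, Egfl7 and Cldn5 together reached 465 CPM, against 172 CPM in KPC. Their part in the Cd34 level of that class was not tested.

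Emcn was lowest in the artery class among the blood vessel classes of both libraries, the reverse of Podxl. It stood at 560 CPM in KPC artery cells (481 to 647) and 529 CPM in PyMT artery cells (466 to 598). In KPC the other levels were 1802 CPM in Car4/Cd300lg (1758 to 1847), 1388 CPM in other (1367 to 1410), 1272 CPM in venule (1231 to 1313) and 1245 CPM in tip cells (1221 to 1269), and tip and venule did not differ beyond counting error (log2 ratio -0.03, -0.09 to 0.02). With doubled thresholds the artery over Car4/Cd300lg log2 ratio was -2.86 in KPC, against -1.69 as reported (-1.91 to -1.47). In PyMT the levels were 1084 CPM in venule (1032 to 1138), 943 CPM in Car4/Cd300lg (926 to 960), 924 CPM in other (911 to 937) and 859 CPM in tip cells (843 to 875). Emcn in venule over Car4/Cd300lg cells therefore had opposite signs, with a log2 ratio of -0.50 in KPC (-0.56 to -0.44) and 0.20 in PyMT (0.13 to 0.28), and the difference between libraries was not tested. Venule cells themselves were 1.17-fold higher in KPC than in PyMT, while Car4/Cd300lg cells were 1.91-fold higher. After thinning, 38.8% of KPC and 62.6% of PyMT artery cells had an Emcn UMI, against 94.0% and 80.9% of Car4/Cd300lg cells and 8.76% and 14.1% of Krt8/Krt18 cells.

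Cd164 was detected in every class, and its level varied less than those of the other members. It lay between 74.2 CPM (artery, 47.5 to 110) and 154 CPM (fibroblast, 138 to 170) in KPC and between 91.7 CPM (Car4/Cd300lg, 86.5 to 97.1) and 118 CPM (fibroblast, 65.9 to 194) in PyMT. The KPC fibroblast interval lay apart from that of the Krt8/Krt18 class, at 77.6 CPM (72.4 to 83.0). The venule over Car4/Cd300lg log2 ratio was 0.16 in KPC (-0.06 to 0.39) and 0.22 in PyMT (-0.03 to 0.46), so a difference was not detectable at this depth, and an excess in venule cells beyond 0.46 on the log2 scale lay outside both intervals.

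**Figure D2:**
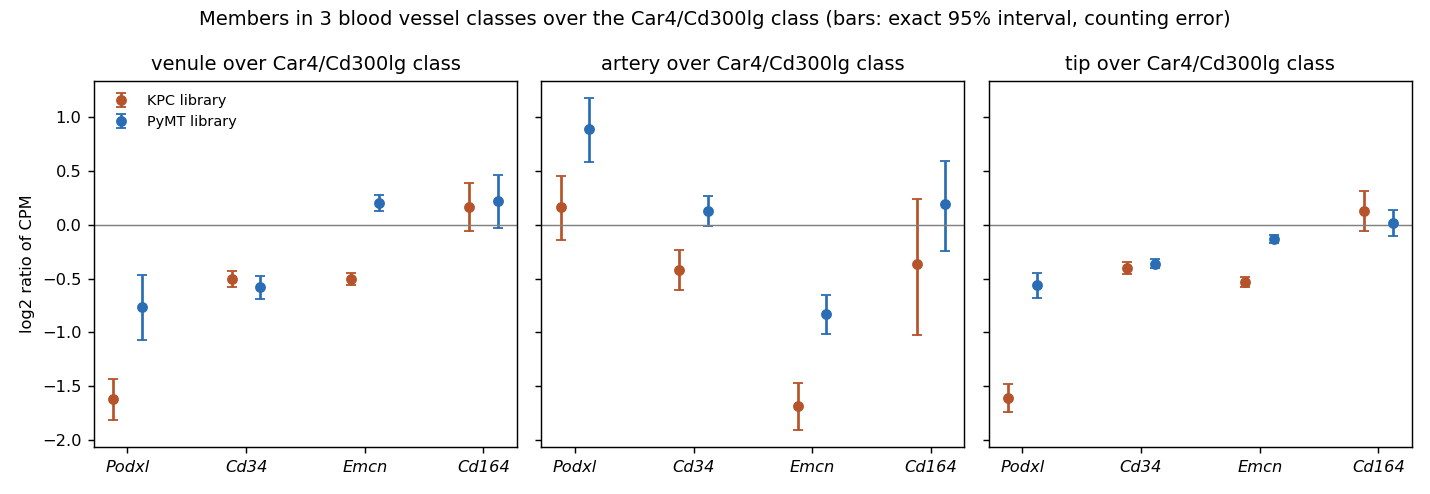
Log2 ratio of CPM (y axis) of 4 members (x axis) in the venule, artery and tip classes over the Car4/Cd300lg class, for the KPC and PyMT libraries, with exact 95% intervals for counting error. Podxl lies at -1.62 and -0.76 in venule cells, Emcn at -1.69 and -0.83 in artery cells, and Emcn in venule cells lies on opposite sides of 0.

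With a fold of 2 as the limit and genes of at least 50 UMIs in both classes together, few members passed, and their counts were read against all genes. In venule over Car4/Cd300lg cells of KPC, 1 of 4 members was lower (Podxl), where 4.82% of all genes were lower and 2.42% higher. The corresponding PyMT comparison had 1 of 5 members higher (Glycam1), against 3.59% of genes higher and 2.71% lower. In artery cells of KPC, 1 of 4 was lower (Emcn), against 10.4% of genes lower and 4.61% higher, and in PyMT 0 of 5 passed, against 11.2% and 7.12%. There Podxl reached a log2 ratio of 1.12 with the rule and levels on thinned cells, and Emcn -1.14 with the marker thresholds of the blood vessel classes doubled, both past 2-fold. In tip cells of KPC, 1 of 4 was lower (Podxl), against 6.12% of genes lower and 2.76% higher, and in PyMT 1 of 5 was lower (Glycam1), against 0.958% lower and 0.47% higher. That tip value rests on 1 Car4/Cd300lg cell with 49 of the 87 Glycam1 UMIs of its class, without which the log2 ratio was -0.20 (-0.91 to 0.51) and no longer past 2-fold. The median log2 ratio of venule over Car4/Cd300lg cells was -0.50 over the 4 members in KPC and 0.20 over the 5 in PyMT, beside -0.05 and 0.03 over all genes tested. These member medians are not over the same genes, since Glycam1 had too few UMIs in KPC to be counted. In PyMT the ratios were -0.76 for Podxl, -0.58 for Cd34, 0.20 for Emcn, 0.22 for Cd164 and 6.82 for Glycam1. The PyMT median thus depends on Glycam1, most of whose venule UMIs lay in 4 cells.

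The same differences were followed without class limits, by counting UMIs of each marker pair in blood vessel cells thinned to 2000 UMIs. Podxl stood at 126 CPM in KPC cells with 0 UMIs of Car4 and Cd300lg (117 to 134), 219 CPM with 1 (196 to 244), 260 CPM with 2 to 3 (222 to 303) and 460 CPM with 4 or more (350 to 595). In PyMT the values were 88.5 CPM (83.1 to 94.1), 112 CPM (101 to 124), 99.7 CPM (87.5 to 113) and 109 CPM (91.4 to 128). The KPC value was thus higher at each step, though its intervals at 1 and at 2 to 3 UMIs overlapped. In PyMT the intervals from 1 UMI on overlapped. Emcn went from 1301 to 1810 CPM along this pair in KPC and from 925 to 884 CPM in PyMT. Along Apln and Angpt2, the Podxl value was lower at each step in both libraries, though in each the intervals of neighbors were apart between 0 and 1 UMI alone, from 186 CPM at 0 UMIs (175 to 198) to 78.8 CPM at 4 or more (61.3 to 99.7) in KPC and from 103 CPM (97.4 to 109) to 65.9 CPM (49.1 to 86.6) in PyMT. Cd34 was also lower at 4 or more UMIs of this pair, at 728 CPM in KPC (673 to 787) and 590 CPM in PyMT (538 to 647). Along Gja5 and Sema3g, Podxl was 153 CPM at 0 UMIs and 288 CPM at 2 to 3 in KPC, and 94.0 and 198 CPM in PyMT, while Emcn was 1400 and 545 CPM in KPC and 948 and 605 CPM in PyMT. These artery steps rest on 33 cells in KPC and 43 in PyMT. Along Ackr1 and Selp, Podxl was 168 CPM at 0 UMIs (158 to 177) and 78.0 CPM at 4 or more (54.0 to 109) in KPC, while the PyMT intervals at 0 (92.3 to 102) and at 4 or more (29.5 to 106) overlapped.

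**Figure D3:**
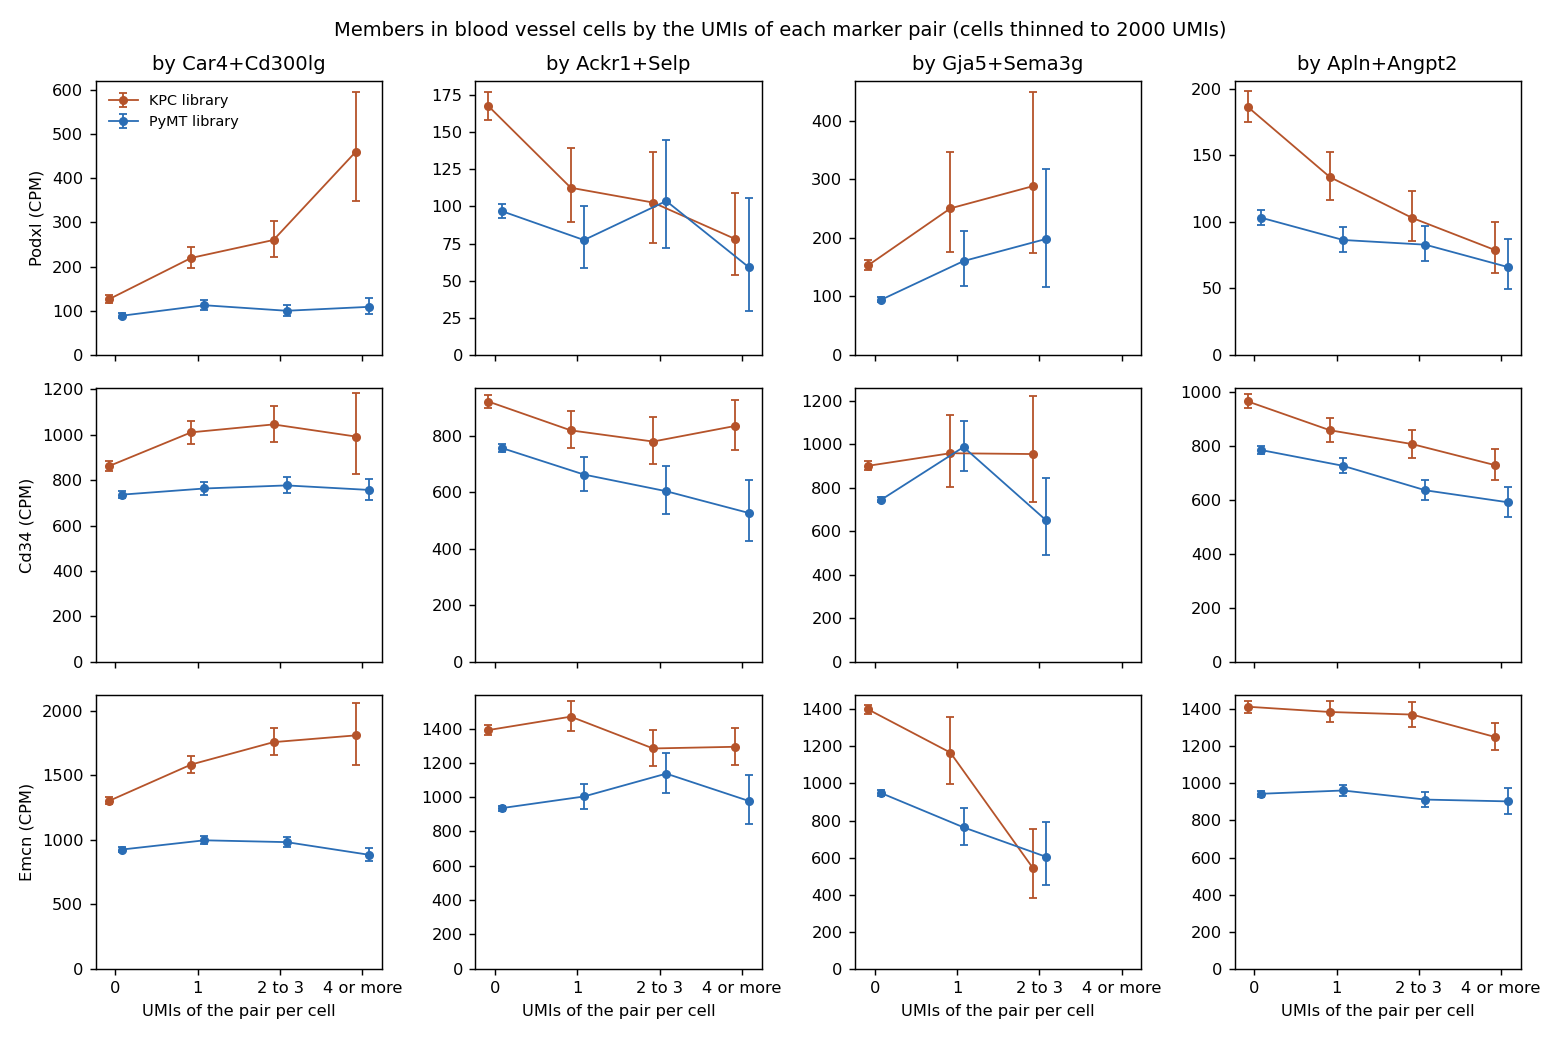
CPM of Podxl, Cd34 and Emcn (y axes, from 0) in blood vessel cells thinned to 2000 UMIs, by the UMIs of each of 4 marker pairs per cell (x axes) in the KPC and PyMT libraries, with exact Poisson 95% intervals; bins under 20 cells are left out. Podxl goes from 126 to 460 CPM along Car4 and Cd300lg in KPC but stays between 88.5 and 112 CPM in PyMT.

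Nr2f2 was highest among blood vessel classes in venule cells, at 143 CPM in KPC (130 to 158) and 120 CPM in PyMT (103 to 139), and lowest in artery cells, at 21.6 CPM (7 UMIs) and 8.20 CPM (4 UMIs). Within a class, cells with and without a Nr2f2 UMI were compared after thinning, since depth would otherwise set which cells have one. Podxl did not differ beyond counting error in any of the venule, Car4/Cd300lg, tip and other classes. In venule cells its log2 ratio was -0.04 in KPC (136 cells with a UMI and 397 without, -0.77 to 0.64) and 0.10 in PyMT (66 and 219 cells, -1.10 to 1.16). At this depth a cell with 0 Nr2f2 UMIs is not a cell without Nr2f2. Cd34 was lower in cells with a Nr2f2 UMI in the PyMT other class (615 against 790 CPM, log2 ratio -0.36, -0.51 to -0.22). Emcn was slightly higher in such cells of the PyMT tip class (1023 against 885 CPM, 0.21, 0.02 to 0.39) and slightly lower in those of the KPC other class (1279 against 1397 CPM, -0.13, -0.25 to -0.01). In the remaining comparisons of Cd34, Emcn and Cd164 in these classes of both libraries, every interval included 0. The Emcn differences were thus picked from many and had opposite signs.

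Of the cytoplasmic partners of podocalyxin, Slc9a3r2, which encodes the scaffold NHERF2, had the class pattern most like that of Podxl. Among 9354 genes compared over 16 class profiles, its Pearson r with Podxl on log2(CPM + 1) was the highest, at 0.98, followed by Ldb2 at 0.96 and Arl15 at 0.96. The profiles share libraries, and the gap between endothelial and other classes enters all these values. Over the 10 blood vessel profiles alone, r with Slc9a3r2 was 0.97 and the gene ranked 4. Slc9a3r2 stood at 980 CPM in artery, 651 CPM in Car4/Cd300lg, 262 CPM in tip and 202 CPM in venule cells of KPC, and at 689, 316, 208 and 207 CPM in those classes of PyMT. Its venule over Car4/Cd300lg log2 ratio was -1.69 in KPC (-1.82 to -1.56) and -0.61 in PyMT (-0.78 to -0.44). Ezr, encoding ezrin, was higher in artery than in Car4/Cd300lg cells in both libraries (log2 ratio 1.97, 1.05 to 2.83, and 1.32, 0.48 to 2.06), and Slc9a3r1, encoding NHERF1, was in PyMT (1.76, 0.91 to 2.52). The related Msn and Rdx, encoding moesin and radixin, stayed within 2-fold in every comparison. For Cd34 the genes most alike over the 16 profiles were Plekha1, Exoc5 and Vwa1 (r 0.96 each), but over the blood vessel profiles alone these had r of 0.53, 0.60 and -0.10, so they are not its nearest genes among vessel classes. For Emcn they were Gm32688 (0.99), Fam167b (0.98) and Flywch1 (0.98) over the 16 profiles, and over the blood vessel profiles alone these had r of 0.93, 0.88 and 0.75 and ranked 48, 141 and 634.

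**Figure D4:**
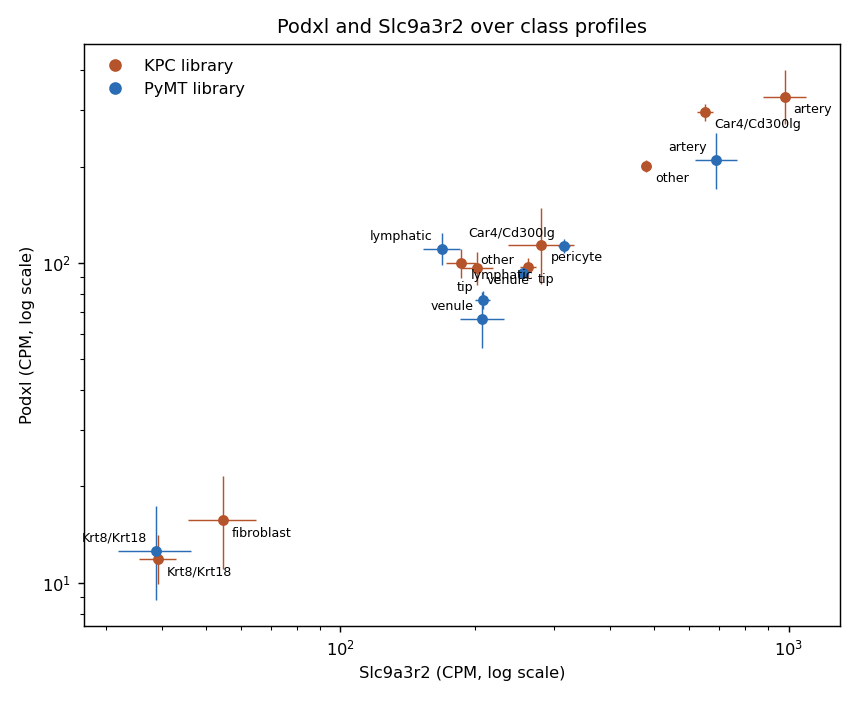
Podxl (y axis) against Slc9a3r2 (x axis), both as CPM on log scales, in the 16 class profiles of at least 50 cells of the KPC and PyMT libraries, with exact Poisson 95% intervals. Artery and KPC Car4/Cd300lg cells lie at the upper right and fibroblast and Krt8/Krt18 cells at the lower left, with a Pearson r of 0.98 on log2(CPM + 1).

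Among the selectins, Sele, encoding E-selectin, was higher in venule than in Car4/Cd300lg cells of both libraries, at 57.4 against 4.75 CPM in KPC and 56.0 against 2.52 CPM in PyMT. Selp, encoding P-selectin, helped to define the venule class, so its level there is no result. Of the 10 other sialomucins and selectin ligands listed, 3 had enough UMIs in KPC for the venule comparison. Madcam1, encoding a mucin-like ligand of the integrin α4β7, was 342 CPM in venule and 9.23 CPM in Car4/Cd300lg cells of KPC (log2 ratio 5.21, 4.71 to 5.76), but 5.33 CPM in venule cells of PyMT. Cd24a, encoding a small mucin-like P-selectin ligand, was 16.0 CPM in venule and 187 CPM in Car4/Cd300lg cells of KPC (-3.54, -4.00 to -3.11), whereas in PyMT those classes had 10.7 and 0.866 CPM, too few UMIs for the count of genes past 2-fold. Glg1, which encodes an E-selectin ligand, was 47.8 and 43.1 CPM in KPC.

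Of 26 listed sugar and sulfate enzymes and transporters, 19 had enough UMIs in KPC and 22 in PyMT for the venule comparison. There, 0 were at least 2-fold higher in either library (2.42% of all genes in KPC and 3.59% in PyMT), and 2 were lower in KPC (4.82% of all genes), namely Fut4, a fucosyltransferase (8.88 against 23.8 CPM), and B4galt4, a galactosyltransferase (69.0 against 196 CPM), with 0 lower in PyMT (2.71% of all genes). The median log2 ratio of the list was -0.35 in KPC and -0.20 in PyMT. In artery cells, 5 of 19 were at least 2-fold lower in KPC, where 10.4% of all genes were, and 4 of 22 in PyMT, where 11.2% were, and Fut4, Chst1 and Chst2 were among them in both. Slc35c1, a GDP-fucose transporter gene, and St3gal1, a sialyltransferase gene, were the 2 of 22 at least 2-fold higher in PyMT artery cells (7.12% of all genes), and 0 of 19 were in KPC (4.61%). The Slc35c1 value rests on only 4 artery UMIs (8.20 against 3.78 CPM), and that of St3gal1 on 25 (51.3 against 18.7 CPM). Chst2, encoding a sulfotransferase that makes the sulfated sugar L-selectin binds, was 37.1 CPM in artery and 152 CPM in Car4/Cd300lg cells of KPC (log2 ratio -2.03, -2.99 to -1.22) and 10.3 and 35.6 CPM in PyMT (-1.79, -3.42 to -0.56). Fut4 had 0 UMIs in the artery classes, where 3 counts would make 9.27 CPM in KPC and 6.15 CPM in PyMT, against 23.8 and 13.8 CPM in Car4/Cd300lg cells. In tip cells Chst1, encoding another sulfotransferase, was 80.0 CPM against 36.3 CPM in KPC (log2 ratio 1.14, 0.86 to 1.42) and 105 against 71.9 CPM in PyMT (0.55, 0.43 to 0.67).

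Glycam1 was found in few cells, and nearly all of its UMIs were in PyMT. The KPC library held 53 Glycam1 UMIs in 30 cells, with at most 6 in a cell, and 16 of those cells were in the venule class (10.2 CPM, 6.91 to 14.6). The KPC Car4/Cd300lg class had 0 UMIs, where 3 counts would make 0.839 CPM. The PyMT library held 2326 UMIs in 193 cells, and 81.5% of them lay in 10 cells. The PyMT venule level was 773 CPM (729 to 818), but the 4 venule cells with at least 10 Glycam1 UMIs held most of it, and without them it was 25.0 CPM (17.6 to 34.5). The level of 145 CPM in the Krt8/Krt18 class rested on 426 UMIs, of which 419 lay in 1 cell with 5 Krt8 and 1 Krt18 UMIs. After thinning, 4.91% of PyMT venule cells had a Glycam1 UMI (2.71 to 8.10), 0.76% of Car4/Cd300lg cells did (0.451 to 1.20), and so did 1.69% of KPC venule cells (0.775 to 3.18). The Krt8/Krt18 class of PyMT gave 0.796% (0.164 to 2.31), and unthinned the PyMT shares were 6.67%, 1.42% and 2.11%.

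The PyMT cells with at least 10 Glycam1 UMIs numbered 20, and the enzymes of high endothelial venules marked some of them. Chst4, the sulfotransferase of high endothelial venules, and Fut7, the fucosyltransferase that completes the L-selectin ligand, had 18 and 8 UMIs in the whole PyMT library. All 8 Fut7 UMIs and 10 of the 18 Chst4 UMIs were in 5 of the 20 cells, a split made after the values had been seen. Those 5 cells held 782, 419, 307, 61 and 41 Glycam1 UMIs and 50, 52, 97, 33 and 34 UMIs of Ccl21a, a chemokine that high endothelial venules and lymphatic vessels display. They had 0 UMIs of Madcam1, Prox1 and Lyve1, the latter a pair of lymphatic markers, and 0 of Podxl, with 8 Cd34 and 13 Emcn UMIs together. Counts of 0 in so few cells do not show that a gene was absent. By the rule the 5 cells fell into the venule class (2 cells), the other class (2) and the Krt8/Krt18 class (1). The 5 cells had a median of 4218 UMIs. The remaining 15 cells, with a median of 1971 UMIs, held 11 to 82 Glycam1 UMIs. They had 0 Fut7 and 0 Chst4 UMIs because the split was made by these genes. In 11 of them there were UMIs of the chemokine Ccl20, 215 in all, of 284 in the library, whereas the 5 cells had 0. The 15 cells also held 10 Madcam1 and 24 Lyve1 UMIs, and 1 of them had 23 Ccl21a and 6 Enpp2 UMIs. Ccl21a has 2 gene identifiers in the tables, which were summed, and its near-identical copies make its counts uncertain.

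**Figure D5:**
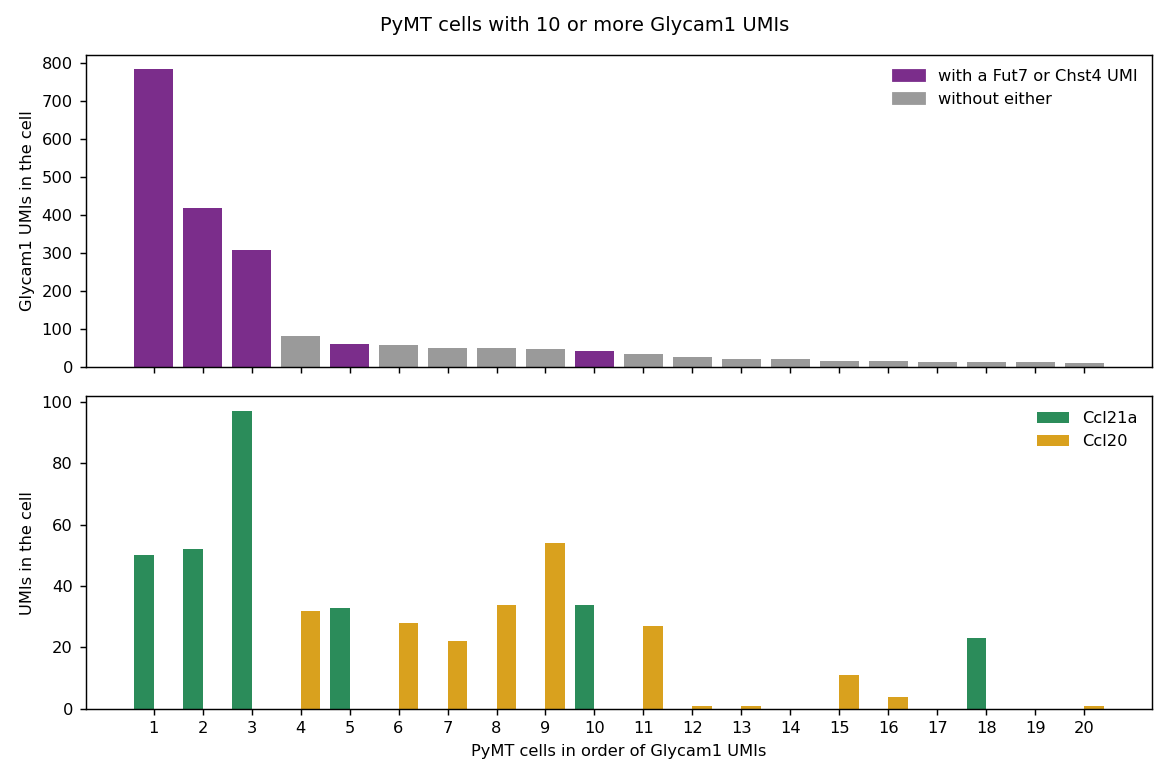
UMIs of Glycam1 (upper panel) and of Ccl21a and Ccl20 (lower panel) per cell (y axes, from 0) in the 20 PyMT cells with at least 10 Glycam1 UMIs, in order of Glycam1 (x axis); purple bars have a Fut7 or Chst4 UMI. The purple cells carry 33 to 97 Ccl21a and 0 Ccl20 UMIs, and Ccl20 lies in other cells.

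In the PyMT venule class, the high endothelial venule list (Chst4, Fut7, Madcam1, Ccl21a, Enpp2, Sele) reached 4646 CPM in the 9 cells with at least 3 Glycam1 UMIs and 253 CPM in the other 351 (log2 ratio 4.20, 3.94 to 4.45), mostly from Ccl21a (171 of 200 UMIs). Those 171 UMIs lay in 4 of the 9 cells, with 50 and 97 in the cells already described for their Fut7 and 23 in another. In the PyMT lymphatic class, where Ccl21a is a marker, the list was lower in the 6 cells with at least 3 Glycam1 UMIs than in the rest (230 against 11570 CPM). In the venule class, Emcn, at 999 against 1086 CPM, and Cd34, at 604 against 537 CPM, did not differ beyond counting error between the 9 cells and the other 351. This did not hold in the PyMT other class, where 22 cells had at least 3 Glycam1 UMIs. There Emcn was lower in the 22 cells, at 354 against 925 CPM (log2 ratio -1.38, -2.14 to -0.72). Cd34 was lower too, at 453 against 753 CPM (-0.73, -1.39 to -0.15). The high endothelial venule list was 3877 against 489 CPM, with 12 Madcam1 UMIs in the 22 cells. The milk list (Csn2, Csn3, Csn1s1, Csn1s2a, Wap, Lalba) had 0 UMIs in the 9 cells, where 3 counts would make 69.7 CPM. Of its casein genes, Csn2, Csn1s1 and Csn1s2a were at 0 in every class of both libraries. Csn3 was not, and it was highest in the PyMT Krt8/Krt18 class, at 3.74 CPM (11 UMIs). Lalba lay at or below 11.5 CPM throughout. The genes most like Glycam1 over the 16 class profiles, Dph3 (r 0.82), Nsa2 (0.79) and Khdrbs1 (0.75), had r of 0.77, 0.91 and 0.76 over the blood vessel profiles alone. The difference between libraries enters these values. In venule cells Glycam1 was 10.2 CPM in KPC and 773 CPM in PyMT, and Dph3 134 and 186 CPM. Because 81.5% of the PyMT Glycam1 UMIs lay in 10 cells, the likeness also rests on few cells.

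Set side by side by tumor model, Podxl and Emcn were higher in KPC in several classes, most in the Car4/Cd300lg class. There the log2 ratio of KPC over PyMT was 1.39 for Podxl (1.27 to 1.51), 0.93 for Emcn (0.89 to 0.98), 0.39 for Cd34 (0.34 to 0.45) and 0.06 for Cd164 (-0.12 to 0.23). In venule cells it was 0.53 for Podxl (0.20 to 0.87), 0.47 for Cd34 (0.35 to 0.59), 0.23 for Emcn (0.15 to 0.32) and 0.00 for Cd164 (-0.28 to 0.29). In lymphatic cells Podxl (-0.15, -0.37 to 0.08) and Emcn (0.13, -0.01 to 0.28) did not differ beyond counting error and Cd34 was lower in KPC (-0.62, -0.79 to -0.44). The summed capillary markers moved with the Podxl and Emcn gap, at 12631 and 4819 CPM in the Car4/Cd300lg class, and their part in it was not tested. That class, set by a fixed number of UMIs, had a median depth of 1879 UMIs in KPC and 4254 in PyMT. The part of depth in the gap was not tested either. The collagenase concentration of the tissue digest also differed between the models and cannot be told apart from them.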

How the data were processed

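Single BECs of 1 KPC and 1 PyMT tumor library were counted per gene and barcode by the authors with Cell Ranger (3.0.2 by the matrix headers, 3.0 by the submitters' processing notes) on mm10. The counts were deposited as whole UMI counts without normalization. The labels and a passage of the methods name the v2 kit, and another passage of the methods names v3. Groups came from the tissue label of each sample.

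From the counts, cells were filtered and put into classes as given above, by the first rule met in the order Krt8/Krt18 (at least 5 UMIs), fibroblast (Col1a1 and Col1a2, 10), lymphatic (Mmrn1 and Prox1, 3), pericyte (Notch3 and Higd1b, 2), venule (3), artery (2), tip (3) and Car4/Cd300lg (2). No doublet caller was run. UMIs were summed per class and given as CPM with exact Poisson intervals, ratios with exact conditional binomial intervals and shares with Clopper-Pearson intervals, all at 95%. A count of 0 allows up to 3 counts. Cells were thinned to 2000 UMIs without replacement (seed 0), leaving out shallower cells (700 of 1297 KPC and 230 of 2597 PyMT Car4/Cd300lg cells). No p-value was computed, since cells of 1 library are not replicates. The ratios were tested on simulated class counts and the thinning on a part of the real cells. The simulated counts held counting error only, so they do not show how the intervals behave for UMIs gathered in few cells. Named genes are the members, listed genes with at least 50 UMIs in a library, genes of the high endothelial venule and milk lists, the 3 genes most like each of Podxl, Cd34, Emcn and Glycam1 (genes of at least 200 UMIs per library) and, chosen after their values were seen, Ccl20, Lyve1 and the leading genes of Glycam1 cells. The members and lists were chosen with earlier results of these data known. Of 31055 identifiers, 30934 were in GENCODE M21. Protein composition, planned for the members, is not analysed here. Python 3.11.15, numpy 2.4.6, scipy 1.17.1 and pandas 2.3.3 were used.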

Additional observations from a re-analysis of the deposited data

Results flagged for a closer look

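Emcn in venule over Car4/Cd300lg cells had opposite signs in the tumor models, with a log2 ratio of -0.50 in KPC and 0.20 in PyMT, both intervals off 0. Each model is 1 library, and the difference was not tested. The Car4/Cd300lg class of PyMT did not carry the highest level of any of the 5 capillary markers among blood vessel classes, which it did for all 5 in KPC, and the part of this in the Emcn values was not tested. Against the other class in place of Car4/Cd300lg, the venule log2 ratio was -0.13 in KPC (-0.18 to -0.08) and 0.23 in PyMT (0.16 to 0.30).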

How the results depend on the processing

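No paired analysis was possible because each tumor model has 1 library and the labels give no replicate numbers. Leaving out a replicate was not possible for the same reason. The alternatives were fixed with earlier results known, except leaving out cells with at least 10 Glycam1 UMIs and the likeness over blood vessel profiles alone, which were chosen after seeing the data. Over 8 alternatives, the 24 ratios of Podxl, Cd34, Emcn and Cd164 over the Car4/Cd300lg class gave 192 values, of which 159 stayed inside the main interval and 33 fell outside it. All 16 ratios whose interval excludes 0 kept their sign in these alternatives. The venule over Car4/Cd300lg log2 ratios outside it were, in KPC, Emcn at -0.41 under a stricter cell filter (1000 genes, less than 5% mitochondrial), Podxl at -1.91, Cd34 at -0.33 and Cd164 at -0.092 with the rule and levels on thinned cells, Cd34 at -0.42 and Emcn at -0.44 with the blood vessel thresholds doubled, Podxl at -1.91 and Emcn at -0.70 as the mean of per-cell CPM, and Cd34 at -0.41 and Emcn at -0.41 without mitochondrial and ribosomal protein genes. In PyMT, Emcn was 0.32 without cells meeting more than 1 rule and 0.12 as the mean of per-cell CPM. The PyMT venule level of Glycam1 was 294 CPM under the stricter filter, 948 CPM without the top 8% of barcodes by UMIs, 85.3 CPM without cells meeting more than 1 rule, 468 CPM on thinned cells, 561 CPM with doubled thresholds, 1026 CPM as the mean of per-cell CPM, 1015 CPM without mitochondrial and ribosomal protein genes and 25.0 CPM without cells of at least 10 Glycam1 UMIs. Of the other ratios outside their interval, Emcn in artery over Car4/Cd300lg cells with doubled thresholds was -2.86 in KPC (-1.69 as reported) and -1.14 in PyMT (-0.83). Podxl in PyMT artery cells stayed inside its interval but passed 2-fold on thinned cells, at 1.12. In KPC the Podxl artery over Car4/Cd300lg log2 ratio, whose interval includes 0, ranged from -0.078 to 0.32 over these settings, so its sign was not kept. Without cells of at least 10 Glycam1 UMIs, the PyMT tip over Car4/Cd300lg ratio of Glycam1 was -0.20 (-1.39 as reported). The cause of these shifts was not tested, except that leaving out cells of at least 10 Glycam1 UMIs removes those that hold most of them. Venule cells held 52.8% of the Glycam1 UMIs of PyMT cells with at least 3, and 49.8% counting all cells with a UMI; no KPC cell reached 10. Listed genes past 2-fold numbered 8 in artery cells of KPC and became 13 with a minimum of 10 UMIs and 5 with 200. They numbered 12 in artery cells of PyMT and became 6 with 200, 3 in venule cells of PyMT (with Selp, which the venule rule uses, among them) and became 6 with 10, and 1 in tip cells of PyMT and became 4 with 10 and 0 with 200. With 50 UMIs, the shares of all genes higher and lower were 4.61% and 10.4% in KPC artery cells and 7.12% and 11.2% in PyMT artery cells. They were 3.59% and 2.71% in PyMT venule cells and 0.47% and 0.958% in PyMT tip cells. Shares at 10 and 200 UMIs are not given here, so these counts show only how the lists depend on the minimum. Over blood vessel profiles alone, r of Cd34 with Vwa1 was -0.10. The artery class is shallow: Podxl there rests on 107 UMIs in KPC and 102 in PyMT, and Cd164 on 24 and 51.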

Other observations

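The PyMT cells with at least 10 Glycam1 UMIs led in different genes on either side of the split by Fut7 and Chst4, both described here after their values were seen and without a test. Only genes with at least 10 UMIs in a set and found in a fixed share of its cells were ranked. This left out Fut7, with 8 UMIs, which together with Chst4 chose the 5 cells. In the 5 cells with either enzyme, the ranked genes furthest above the other PyMT cells, apart from Chst4, were Serpina1e (32 UMIs in 4 cells), Serpina1b (11 UMIs in 5), Enpp2 (25 UMIs in 5), which encodes the secreted enzyme autotaxin of high endothelial venules, and Ubd (92 UMIs in 5). Ubd stood at 4129 CPM there and at 35.9 CPM in the PyMT cells under 10 Glycam1 UMIs. In the 15 cells without either enzyme, they were Ccl20, Dsg2 (12 UMIs in 7 cells), C3 (20 UMIs in 6), Gm10851 (10 UMIs in 6) and Cyp1b1 (18 UMIs in 9). Ltb, encoding lymphotoxin beta, had 20 UMIs in 9 of these cells, and Clu, encoding clusterin, led in both sets, with 57 UMIs in 5 cells and 256 UMIs in 12 cells. Pecam1, a marker of all endothelium, had 17 UMIs in the 5 cells and 24 in the 15, and Cdh5 had 7 and 26. Median depth was 4218 UMIs in the 5 cells and 1971 in the 15. These counts are therefore not directly comparable between the sets.

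Cells with and without an Emcn UMI were also compared within each blood vessel class after thinning. In the venule, Car4/Cd300lg, tip and artery classes, Cd34 in cells with one over those without had log2 ratios from 0.03 (KPC venule, -0.24 to 0.30) to 0.49 (PyMT artery, 0.02 to 0.97), and 5 of 8 intervals included 0. Podxl intervals included 0 in 8 of 8. In the other class Cd34 was higher in cells with an Emcn UMI, at 1001 against 586 CPM in KPC (log2 ratio 0.77, 0.62 to 0.93) and 842 against 548 CPM in PyMT (0.62, 0.53 to 0.71). Podxl in the same cells was 179 against 118 CPM in KPC (0.60, 0.26 to 0.97) and 96.6 against 81.4 CPM in PyMT (0.25, 0.00 to 0.50). That class holds every cell that met no rule, so its makeup differs between the libraries.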
